A study of Mus musculus with 6 samples.

Results

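BTB zinc finger proteins carry a BTB domain at the amino terminus, through which they pair with each other and recruit corepressors, and C2H2 zinc fingers at the carboxyl terminus, which read DNA. Many of them silence genes by bringing the corepressors Ncor1 or Bcor and histone deacetylases to their sites, and the family is known best for fixing cell identity in lymphocytes, germ cells and the nervous system. Glucocorticoids act through the glucocorticoid receptor (GR), a DNA-binding receptor of the nucleus that switches genes on or off when it binds its ligand. Zbtb16 (also called Plzf) and Bcl6 are the best studied members of the family, the first in germ line stem cells and innate-like T cells and the second in germinal center B cells.

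The question was which of these genes changed in mouse adipocytes exposed to dexamethasone (DEX), a synthetic glucocorticoid. Members were all genes whose symbol is Zbtb followed by a number, plus Bcl6 and Bcl6b. By this rule 40 of 19053 named genes belonged, with 70 of the 45281 probes on the array. Zbtb8os shares the letters of the name but not the protein family. It lies next to Zbtb8a in the genome and encodes a small protein without BTB domain or zinc fingers, so 39 of the 40 genes are BTB zinc finger genes proper.

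RNA came from 3T3-L1 adipocytes on MouseWG-6 BeadChip arrays, 3 arrays of cells given 500 nM DEX for 6 hours and 3 arrays of cells given an equal volume of ethanol, the vehicle, for the same time. 3T3-L1 is a clonal mouse line of embryonic fibroblast origin that turns into adipocytes in culture. Cells of both groups had been differentiated with a mixture that itself contained DEX, together with insulin and methylisobutylxanthine, and were kept in stripped serum before treatment. The methods give the treatments as performed 3 times and hybridized to 1 batch of arrays, without saying whether these were separate cultures. The p-values below therefore describe the scatter among the samples at hand, some or all of which may be technical.

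A probe was tested where its detection p was under 0.05 on at least 3 of the 6 arrays. This p compares the signal of a probe with those of the negative control beads. Of the members, 27 of 40 (67.5%) had a tested probe, against 48.0% of all named genes. Signals were corrected for background, quantile-normalized and put on a log2 scale, and a gene with several tested probes is given by the brightest, called the representative probe. Differences are DEX minus vehicle, from limma, with p-values adjusted over all 16317 tested probes, and an adjusted p under 0.05 counts as a change. On each array 15983 to 16523 probes were detected in DEX and 15800 to 16512 in vehicle. All 4 genes of a glucocorticoid response check (Fkbp5, Tsc22d3, Per1 and Sgk1) were higher in DEX.

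In the fit without pairing, Zbtb16 was the 1 member that changed. It was 6.02 fold higher in DEX, a size that depended on how the background was handled. Bcl6 was 1.51 fold higher but missed the threshold, with an adjusted p of 0.0657. It passed in a fit with paired replicates, described below. The other 25 detected members had log2 fold changes between -0.42 and 0.32, and none of them passed. Thus by limma 1 of 27 members (3.70%) was higher, next to 4.52% of all 9143 genes with a tested probe. None of the 27 was lower (1 at an unadjusted p under 0.05), next to 3.05% of all genes. The share of members called was close to the background in the upward direction.

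Zbtb16 encodes a repressor that holds spermatogonial stem cells in an undifferentiated state and directs the development of natural killer T cells. Its single probe gave unprocessed bead signals of 402, 250 and 213 on the DEX arrays, against 110, 109 and 109 on the vehicle arrays. The DEX arrays were all clearly above background, with DEX replicate 1 the highest, while the vehicle arrays were close to one another and near the background. The detection p of the Zbtb16 probe was 0.0385, 0.0214 and 0.0545 in vehicle, so 2 of 3 vehicle arrays and 3 of 3 DEX arrays counted as detected.

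After normalization, Zbtb16 had log2 signals of 8.32, 7.65 and 7.19 in DEX, against 5.05, 5.30 and 5.03 in vehicle. The lowest DEX array was thus above the highest vehicle array. The means were 7.72 ± 0.57 in DEX and 5.13 ± 0.15 in vehicle (SD, n = 3 each), a difference of 2.59 with a standard error of 0.26 and a 95% interval of 2.01 to 3.17. The adjusted p from limma was 2.99e-04. The spread among the DEX arrays was wide, since replicates 1, 2 and 3 exceeded the vehicle array of their own number by 3.27, 2.35 and 2.15 on the log2 scale.

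The size of the Zbtb16 change depended on how the background was handled. It was 2.64 fold without background correction and 2.90 fold in the values that the authors pre-processed with lumi, and it passed the threshold in each. In RNA from whole cultures a higher signal from more cells of a kind and one from more RNA per cell cannot be told apart.

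Bcl6 encodes a repressor of the germinal center program that also restrains inflammatory genes in macrophages and lipid genes in the liver. The bead signals of its single probe were 2121, 1825 and 2197 in DEX and 1838, 1227 and 1707 in vehicle. These unprocessed signals overlapped, with DEX replicate 2 just under vehicle replicate 1. Normalized, Bcl6 had log2 signals of 10.98, 10.96 and 11.21 in DEX, against 10.65, 10.20 and 10.52 in vehicle. On that scale the groups were separate, with every DEX array above every vehicle array.

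The mean log2 signal of Bcl6 was 11.05 ± 0.14 in DEX and 10.45 ± 0.23 in vehicle (SD, n = 3 each), a difference of 0.60 with a standard error of 0.17 and a 95% interval of 0.22 to 0.97. With replicates of the same number treated as pairs, the adjusted p of Bcl6 from limma was 0.0343, which is past the threshold. The labels do not state such pairs, which were accepted from correlations among these same arrays. In that paired fit 2 of 27 members were higher, Zbtb16 and Bcl6, next to 6.56% of all genes, and 0 of 27 were lower, next to 5.94% of all genes. The call of Bcl6 thus depended on the fit, and it passed in 5 of 14 alternative settings, with adjusted p-values of 0.0146 to 0.293 over all of them. Its smallest log2 fold change in any of these was 0.43, under scaling of each array by its median.

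**Figure D1:**
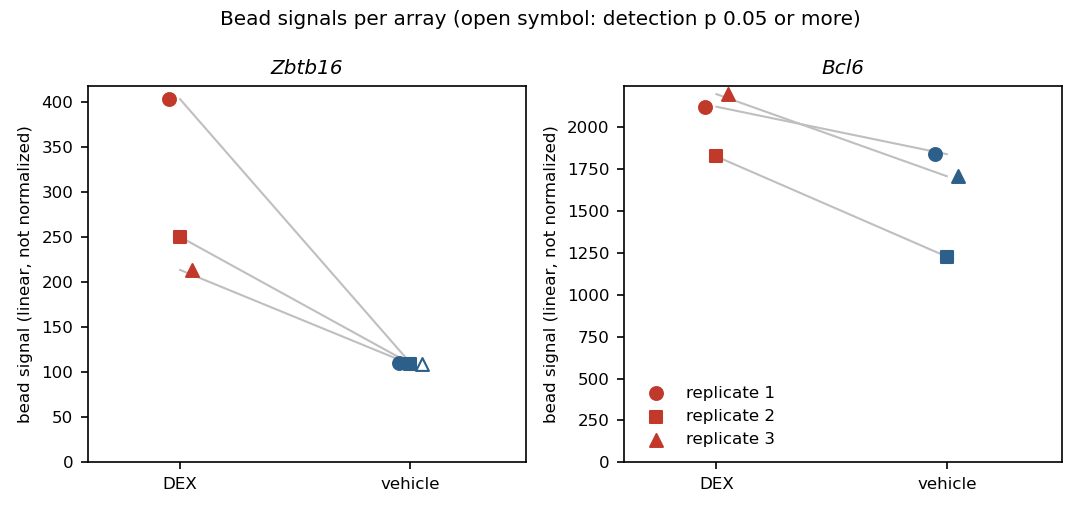
Unprocessed bead signal (linear scale, from 0) of the Zbtb16 probe (left) and the Bcl6 probe (right) on the 3 DEX arrays and the 3 vehicle arrays. Symbol shapes mark the replicate number, lines join arrays of the same number, and the open symbol is a detection p of 0.05 or more. Zbtb16 read 213 to 402 in DEX and 109 to 110 in vehicle, whereas the Bcl6 signals overlapped between groups (1825 to 2197 in DEX, 1227 to 1838 in vehicle).

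**Figure D2:**
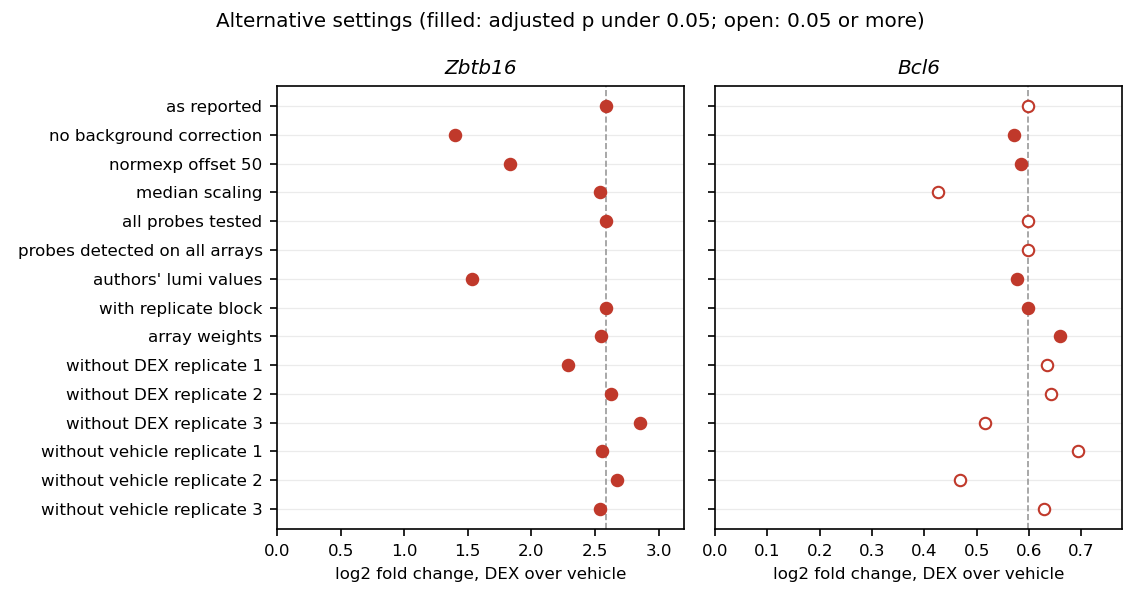
Log2 fold change (DEX over vehicle) of Zbtb16 (left) and Bcl6 (right) as reported and under each alternative setting, with filled points for an adjusted p under 0.05 and a dashed line at the reported value. Zbtb16 passed under all 13 alternatives that tested it, and its smallest log2 fold change was 1.40, without background correction. Bcl6 passed under 5 of 14, with log2 fold changes of 0.43 to 0.69 over all 14.

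Since GR binds DNA, the promoter windows of the members were read for its recognition sequences. RefSeq windows (assembly GRCm38.p6, 250 bases before to 50 after an annotated start) were at hand for 35 members, 49 windows in all; there was none for Zbtb16. The hexamer TGTTCT, which is 1 arm of a GR site, was searched on both strands and lay in 6 of the 49 windows (12.2%), those of Bcl6, Zbtb20, Zbtb33, Zbtb46, Zbtb5 and Zbtb6, against 19.0% of all 32851 windows. The full palindrome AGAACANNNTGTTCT lay in 0 of 49 member windows and in 3 of all windows. The palindrome TTCNNNGAA, to which Stat proteins and Bcl6 itself bind, lay in 3 of 49 (6.12%), against 8.30% of all windows. The 3 windows were both windows of Bcl6 and 1 of Zbtb20. The study also mapped GR binding in these cells by sequencing, and found few bound regions near gene starts and many in introns. Those regions were not searched here, so the windows cannot show whether a member has a GR site elsewhere.

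The Bcl6 windows are shown because Bcl6 had the next largest fold change after Zbtb16 and is known to repress its own gene. Both are on the minus strand of chromosome 16 and are written 5′ to 3′ in the direction of transcription, with matches to TGTTCT or TTCNNNGAA in capitals. The first window is chr16:23988803-23989102 and holds 1 TTCNNNGAA palindrome, 118 bases before the start. The second is chr16:23981234-23981533 and holds 3 such palindromes, 168, 122 and 88 bases before the start, the middle of which overlaps a TGTTCT hexamer at 124 bases. A match is a match of letters only, and binding was not measured on these arrays.
Bcl6 window 1: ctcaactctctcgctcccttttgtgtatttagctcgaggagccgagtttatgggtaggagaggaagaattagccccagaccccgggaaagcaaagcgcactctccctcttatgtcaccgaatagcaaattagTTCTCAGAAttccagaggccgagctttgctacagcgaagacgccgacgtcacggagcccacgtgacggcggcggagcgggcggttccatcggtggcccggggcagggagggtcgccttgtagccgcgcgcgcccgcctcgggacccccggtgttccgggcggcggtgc
Bcl6 window 2: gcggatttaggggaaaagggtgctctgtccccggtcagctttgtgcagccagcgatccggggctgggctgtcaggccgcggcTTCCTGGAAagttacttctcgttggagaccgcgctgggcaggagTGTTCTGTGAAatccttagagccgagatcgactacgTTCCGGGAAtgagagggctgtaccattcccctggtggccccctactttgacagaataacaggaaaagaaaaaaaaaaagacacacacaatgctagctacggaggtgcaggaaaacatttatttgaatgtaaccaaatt

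The members known for acting on the cell cycle did not pass. Zbtb5 is known as a repressor of the cell cycle inhibitor CDKN1A in human cells. Its log2 signals were 7.97, 7.46 and 7.33 in DEX and 8.28, 7.85 and 7.89 in vehicle. The groups overlapped, with DEX replicate 1 above vehicle replicates 2 and 3, and the log2 fold change of -0.42 had a standard error of 0.20 and an adjusted p of 0.290. Zbtb17 (Miz-1) is a partner of Myc that activates Cdkn1a and Cdkn2b when Myc is not bound to it, so it is not solely a repressor. It had log2 signals of 8.60, 8.28 and 8.46 in DEX and 8.88, 8.72 and 8.78 in vehicle. Every DEX array lay below every vehicle array, but the log2 fold change of -0.34, with a standard error of 0.15, had an adjusted p of 0.223. Zbtb2, which opposes the p53 pathway in human cells, had a log2 fold change of -0.02, and Zbtb7a, a repressor of the Arf tumor suppressor, one of 0.01.

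The members that bind methylated or repetitive DNA were Zbtb24, Zbtb33 and Zbtb38. Zbtb24 keeps repeats near the centromere methylated, and its loss in humans causes an immunodeficiency. Its log2 signals were 8.32, 8.28 and 8.05 in DEX, against 7.88, 7.88 and 7.93 in vehicle. All DEX arrays were above all vehicle arrays, and the vehicle arrays were tight, yet the log2 fold change of 0.32 with a standard error of 0.14 had an adjusted p of 0.237. Zbtb33 (Kaiso), a partner of p120 catenin, and Zbtb38, which also recognizes methylated CpG, had log2 fold changes of 0.07 and 0.16.

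Other members known for development in other tissues did not pass either. Zbtb14, described as a repressor at the Myc promoter, had a log2 fold change of 0.31, with log2 signals of 8.03, 7.78 and 8.36 in DEX and 7.63, 7.83 and 7.77 in vehicle. On this representative probe DEX replicate 2 lay inside the vehicle range. Another Zbtb14 probe, almost as bright, was separate upward, with 7.96, 7.85 and 8.24 in DEX and 7.66, 7.61 and 7.42 in vehicle. Its change of 0.46 missed the threshold all the same (0.129 after adjustment, by limma). The remaining Zbtb14 probe, near background, went the other way, at -0.41. Zbtb20, which silences alpha-fetoprotein in the liver, had a log2 fold change of 0.21, and Zbtb18 (RP58), needed for cortical neurons, one of 0.12. Of the lymphoid and myeloid regulators, Zbtb1, needed for lymphocyte development, had a log2 fold change of 0.30, Zbtb7b (ThPOK), which commits T cells to the CD4 lineage, had 0.24, and Zbtb46, a marker of classical dendritic cells, had -0.25. The representative probes of these 3 lay near background, and each was detected on 2 of 3 DEX arrays.

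The remaining detected members had log2 fold changes of 0.27 for Zbtb8a, 0.20 for Zbtb25, 0.19 for Zbtb41, Zbtb21 and Zbtb39, 0.10 for Zbtb43, 0.04 for Zbtb26, -0.05 for Zbtb3, -0.07 for Zbtb8os, -0.17 for Zbtb45 and Zbtb9, and -0.22 for Zbtb22. Without pairing, their adjusted p-values from limma, like those of all members other than Zbtb16, were above 0.05. Some members sit side by side, with no protein-coding gene between them. In such pairs Zbtb1 and Zbtb25 had log2 fold changes of 0.30 and 0.20, whereas Zbtb8a and Zbtb8os had 0.27 and -0.07.

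**Figure D3:**
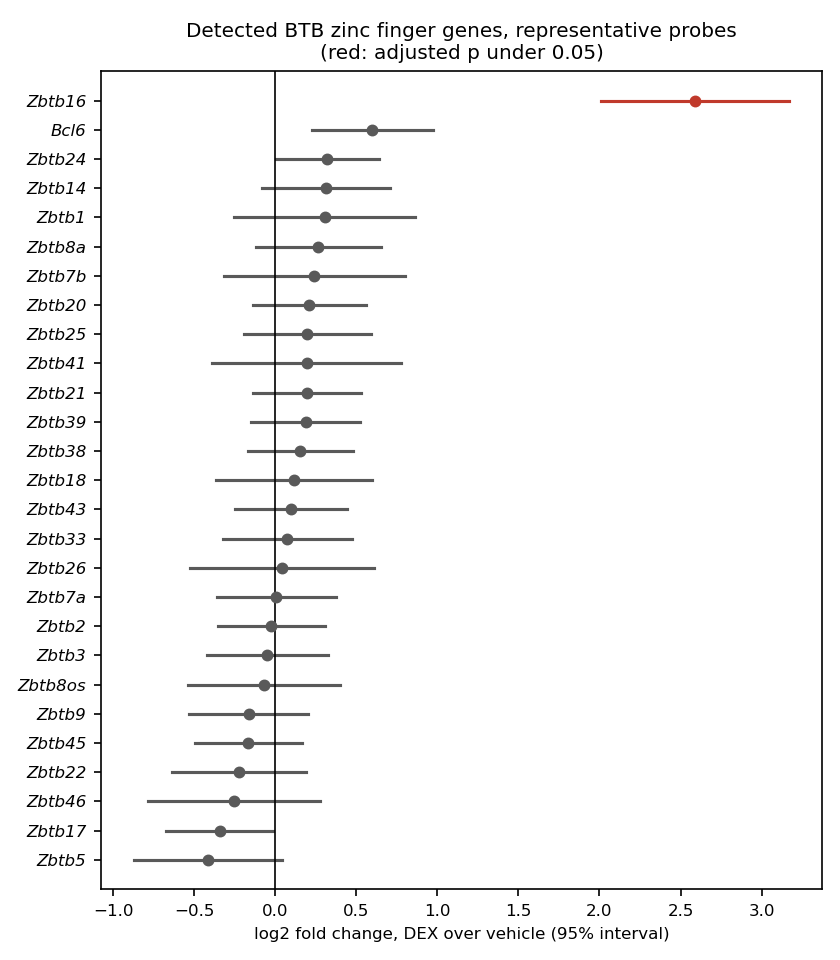
Log2 fold change (DEX over vehicle) of the representative probe of each of the 27 detected members with its 95% interval, ordered by size. Zbtb16 (red, adjusted p under 0.05) lies at 2.59 and Bcl6 at 0.60, and the other 25 lie between -0.42 and 0.32.

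**Figure D4:**
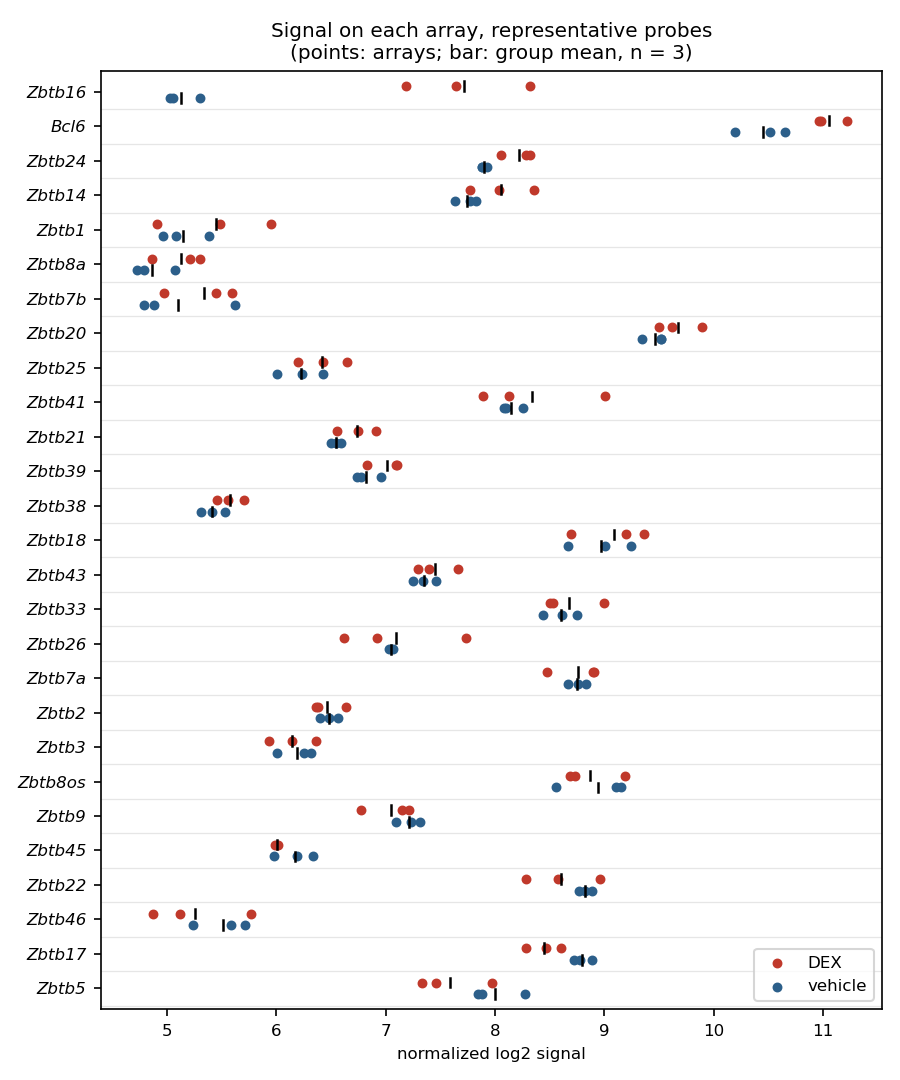
Normalized log2 signal of the representative probe of each detected member on each DEX array (upper points of a row) and vehicle array (lower points), with a bar at the group mean (n = 3). The groups are separate for Zbtb16, Bcl6, Zbtb24 and Zbtb17 and overlap for the other 23; signals of different probes are not comparable with each other.

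Across the family, DEX and vehicle arrays did not overlap for 4 of 27 members (14.8%), whereas this was so for 27.9% of all genes. Of the 4, Zbtb16, Bcl6 and Zbtb24 were separate upward, next to 12.2% of all genes, and Zbtb17 downward, next to 15.7%. These were also the members with an unadjusted p under 0.05, 3 upward against 10.0% of all genes and 1 downward against 11.9%. A change of over 1.5 fold either way was seen in 2 of 27, next to 11.6% of all genes. The fitted change was above 0 for 18 of 27 members (66.7%) and for 42.3% of all genes, with a median log2 fold change of 0.12 over the members and -0.06 over all genes. When each array was scaled by its median, Zbtb18, Zbtb7a, Zbtb33, Zbtb43 and Zbtb26 turned below 0, and 13 of 27 members (48.1%) were above 0, next to 30.9% of all genes.

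The spread between replicates was wider in DEX than in vehicle. For the members, the median SD of the log2 signal was 0.24 in DEX and 0.12 in vehicle, and the SD was larger in DEX for 23 of 27 (85.2%). The same held for all genes, with medians of 0.22 in DEX and 0.14 in vehicle and a larger SD in DEX for 69.6%. Among the DEX arrays, replicate 2 was the lowest for 15 of the 27 members and the highest for 2. Among the vehicle arrays, replicate 2 was also the lowest most often, for 12 members, and was the highest for 6. The same shares over all genes were not counted.

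For 9 members more than 1 probe was tested, and in 6 of them (66.7%) the probes did not share a sign, as in 28.9% of 3362 genes with several tested probes. None of these probes passed. Zbtb14 had the clearest split, since its probes gave log2 fold changes of 0.31, 0.46 and -0.41, the last from a probe detected on 1 of 3 DEX and 3 of 3 vehicle arrays. The others were Zbtb21 (0.19 and -0.23), Zbtb33 (0.07 and -0.25), Zbtb41 (0.19 and -0.21), Zbtb45 (-0.17 and 0.12) and Zbtb7a (0.01 and -0.04). Probes had the same sign for Zbtb18, whose 4 probes gave 0.12, 0.14, 0.12 and 0.12, for Zbtb20 (0.21 and 0.37) and for Zbtb8os (-0.07 and -0.08). Zbtb16 and Bcl6 have 1 probe each on the array, so no other probe can be set beside them.

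**Figure D5:**
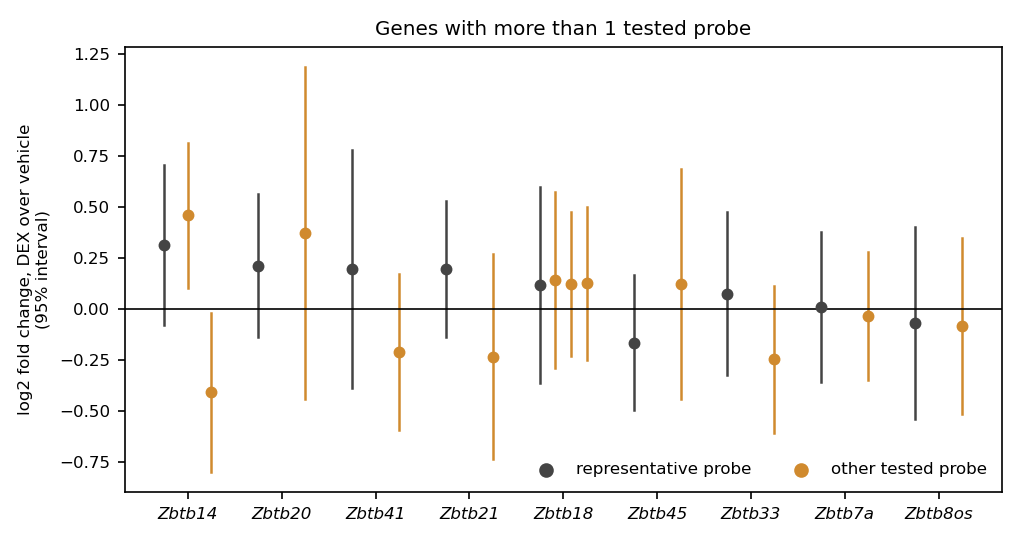
Log2 fold change (DEX over vehicle) with its 95% interval for every tested probe of the 9 members with more than 1, with the representative probe in dark grey and others in orange. Probes lie on both sides of 0 in 6 of the 9, most widely for Zbtb14 (0.46 and -0.41).

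The 13 members without a tested probe were Bcl6b, the closest relative of Bcl6, Zbtb32, which acts in T and B cells, Zbtb7c, Zbtb10, a repressor of SP1 in human cells, and Zbtb6, Zbtb8b, Zbtb11, Zbtb34, Zbtb37, Zbtb40, Zbtb42, Zbtb44 and Zbtb49. Whether these genes changed is not measured here. Over all 40 genes, 31 of 70 probes were not tested, 24 of them detected on no array and 7 on 1 or 2 arrays. Zbtb7b and Zbtb8a were just inside the rule, with 2 DEX and 1 vehicle array detected each. Zbtb11 and Zbtb10 were just outside it, Zbtb11 with 2 DEX and 0 vehicle arrays and Zbtb10 with 1 array of each group. Zbtb4, Zbtb12 and Zbtb48 were not analysed here, because no probe carries their names in the annotation used.

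The same counts were taken for other zinc finger and BTB families, next to 4.52% of all genes higher and 3.05% lower. Of 10 detected Klf genes, the Kruppel-like factors, 4 were higher and 0 lower (without adjustment 6 up and 1 down, in the paired fit 5 up and 1 down), with a median log2 fold change of 0.52. Of 183 detected genes with a Zfp symbol, 3 were higher and 1 lower (without adjustment 12 up and 10 down, in the paired fit 5 up and 2 down, median 0.03), and of 17 detected Klhl genes, which pair a BTB domain with Kelch repeats, none passed by limma (without adjustment 1 up and 1 down, in the paired fit 1 up, median 0.00). No difference between the families was tested. Of 6 BTB zinc finger genes that carry other names, 5 were detected and none passed in either fit or at an unadjusted p under 0.05 (median 0.15). Among them Gzf1 had a log2 fold change of 0.35 and Zfp131 one of 0.15. Zfp131 is also counted among the genes with a Zfp symbol.

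Of the corepressors through which these proteins act, most did not pass. The list of 22 genes also held parts of a ubiquitin ligase, and 16 of the 22 were tested. By limma 2 were higher and 0 lower, next to 4.52% and 3.05% of all genes, with a median log2 fold change of -0.05. Without adjustment 3 were higher and 2 lower, next to 10.0% and 11.9%. In the paired fit 3 were higher and 1 lower, next to 6.56% and 5.94%. Tbl1xr1, a subunit of the Ncor1 complex, had log2 signals of 8.89, 9.29 and 8.96 in DEX and 8.24, 8.35 and 8.23 in vehicle, a log2 fold change of 0.77 (adjusted p = 0.0168). Hdac4, a histone deacetylase that binds both Bcl6 and Zbtb16, had 7.00, 6.84 and 6.87 in DEX and 6.27, 6.34 and 6.22 in vehicle, a log2 fold change of 0.63 (adjusted p = 0.0236). Both were separate between groups, but the adjusted p of Tbl1xr1 went up to 0.0761 when DEX replicate 2 or any 1 of the vehicle arrays was left out, and that of Hdac4 up to 0.108 when DEX replicate 1 or 2 or any 1 of the vehicle arrays was. Cul3 and Rbx1, parts of a ubiquitin ligase that some BTB proteins join, had log2 fold changes of 0.20 and -0.21 and did not pass. The groups were separate for 6 of the 16 tested genes (37.5%), next to 27.9% of all genes. Of these, 3 were separate upward, next to 12.2% of all genes, and 3 downward, next to 15.7%. Hdac2 and Sin3b were separate downward with log2 fold changes of -0.32 and -0.27, and passed in neither fit. Bcor was separate downward, with a log2 fold change of -0.59 and an adjusted p of 0.0856, or 0.0309 in the paired fit. Hdac7 was separate upward, with 0.56 and an adjusted p of 0.0718, or 0.0300 in the paired fit. Ncor1 was not among the tested genes.

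Genes known to be repressed by Bcl6 in lymphocytes, macrophages or liver included some that were higher and some that were lower. Of 26 listed genes 13 were tested, 3 were higher and 4 lower (3 higher and 6 lower in the paired fit), with a median log2 fold change of -0.45. Over all genes 4.52% were higher and 3.05% lower, or 6.56% and 5.94% in the paired fit, and the median was -0.06. Cdkn1a, the cell cycle inhibitor p21, was 5.46 fold higher, with log2 signals of 12.12, 11.92 and 12.16 in DEX and 9.57, 9.36 and 9.91 in vehicle (adjusted p = 3.52e-05). Socs2, which restrains growth hormone signaling, was 3.32 fold higher (adjusted p = 5.97e-04), and the apoptosis inhibitor Bcl2l1 was the other gene that was higher. Vcam1, an adhesion molecule, was 2.41 fold lower (adjusted p = 0.00309), and Cish, a feedback inhibitor of Stat5, was 2.39 fold lower, with log2 signals of 6.81, 6.15 and 5.71 in DEX and 7.56, 7.35 and 7.53 in vehicle (adjusted p = 0.0154). Without DEX replicate 2, vehicle replicate 1 or vehicle replicate 3, the adjusted p of Cish was 0.0679, 0.0577 and 0.0563. The chemokines Ccl2 and Ccl7 were the other genes that were lower. Among the genes that did not pass, Ccnd2, a cyclin, had a log2 fold change of -0.51. Its adjusted p was 0.0825, and it passed in 6 of 14 alternative settings, the paired fit among them (adjusted p = 0.0458). Pdcd2 had one of -0.19.

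Over all genes 4.52% were higher and 3.05% lower. These shares were 10.0% and 11.9% without adjustment, and 6.56% and 5.94% in the paired fit. Of 12 genes linked to Zbtb16, 3 were tested, 2 were higher without adjustment, and 1 passed and was higher, also in the paired fit. This was Ddit4, an inhibitor of the mTOR kinase, at 2.60 fold (adjusted p = 0.00250), and it had log2 signals of 10.54, 10.65 and 10.32 in DEX, against 8.73, 9.23 and 9.41 in vehicle. Bid and Id2 had log2 fold changes of 0.36 and 0.62 and did not pass. Id2 passed in 1 of 14 alternative settings, and it is also on the list of genes repressed by Bcl6. Of 7 cell cycle inhibitors, only some of which members are known to control, 5 were tested, and Cdkn1a was the 1 that passed. Without adjustment 1 was higher and 1 lower, as in the paired fit. Cdkn2c was separate downward with a log2 fold change of -0.83 and an adjusted p of 0.0511, or 0.00889 in the paired fit. It passed in 7 of 14 alternative settings. Cdkn2a had a log2 fold change of -0.05. Of 12 genes of brown fat and heat production, a program that Zbtb16 and Zbtb7b are known to affect in mice, 7 were tested. Of these 1 was lower, or 2 in the paired fit and also without adjustment, and 0 were higher. Ppargc1a, a coactivator of mitochondrial genes, was 2.42 fold lower (adjusted p = 0.00225), whereas Cox8b and Cox7a1 had log2 fold changes of -0.18 and -0.19. Ppargc1b, a relative of Ppargc1a, had a log2 fold change of -0.85, with an adjusted p of 0.0687, or 0.0293 in the paired fit.

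The identity of the cells was read from marker genes beside these results. All 9 adipocyte markers with a named probe (among them Adipoq, Fabp4, Lpl and Pparg) were detected, and their summed normalized signal on the linear scale was 50267 to 53567 in DEX and 48245 to 49737 in vehicle. The brightest probes weigh most in such a sum. Of the 9 markers 2, Lpl and Cd36, were separate upward, next to 12.2% of all genes, and 1, Plin1, downward, next to 15.7%. By limma 0 of these markers were higher, next to 4.52% of all genes, and Plin1 was lower, next to 3.05%. At an unadjusted p under 0.05 there was 1 higher, next to 10.0%, and in the paired fit 0, next to 6.56%. The 7 markers of preadipocytes and fibroblasts were also detected on every array, at sums of 23834 to 27499 in DEX and 23142 to 26074 in vehicle and overlapping between groups. None of these 7 passed by limma. Pdgfra was the 1 that was separate, upward, next to 12.2% of all genes. Its log2 fold change was 0.63, with an adjusted p from limma of 0.0510, or 0.0364 in the paired fit. It was also the 1 marker of these that was higher in the paired fit, next to 6.56% of all genes. The same held at an unadjusted p under 0.05, next to 10.0%. The part of these marker shifts in the results for Zbtb16 and Bcl6 was not tested. The leukocyte markers Ptprc, Cd3e, Adgre1 and Itgam were detected on no array.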

How the data were processed

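Total RNA of the 6 samples was hybridized to MouseWG-6 BeadChip arrays. The deposited values are mean bead signals, an intensity for each probe on each array (linear scale), to which the authors had applied no background correction or normalization. Each comes with a detection p-value, which the authors deposited beside it and which compares the probe with negative control beads. The authors also deposited an intensity table made with lumi, with options not stated in the sources used here; it served as an alternative.

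Background correction used the normexp model of limma 3.58.1 (R 4.3.3), driven by the detection p-values; its offset of 16 compresses folds of dim probes. Quantile normalization and log2 followed. The 16317 of 45281 probes (36.0%) with a detection p under 0.05 on 3 or more of the 6 arrays were tested with limma's moderated two-sided test and Benjamini-Hochberg adjustment. The script was tested on simulated data. With 3 arrays in each group, precision is limited.

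A single gene symbol was given for 34885 probes, several for 18 and none for 10378, and 10 symbols were updated from a gene table of GRCm38.p6. The members, the gene lists and the rule for named genes were chosen with earlier results of these data known. The rule names every detected member, gives array values for those past the threshold, those whose paired call differs and the 4 largest changes among members that did not pass (Bcl6, Zbtb5, Zbtb17 and Zbtb24), and from each list up to 4 genes that passed with the largest change and 2 that did not with the highest signal. Array values of Zbtb14 and the names of Bcl2l1, Ccl2, Ccl7, Ppargc1b, Bcor, Hdac2, Hdac7, Sin3b and Pdgfra were added after their values were seen.

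Arrays of the same replicate number deviated together from their group means, with correlations of 0.44, 0.30 and 0.25 between DEX and vehicle, against -0.37 to 0.10 for arrays of different numbers. The numbers were accepted as pairs on this basis, not from the labels, and entered an alternative fit as a block. Tables and plots were made in Python 3.11.15 (numpy 2.4.6, pandas 2.3.3, matplotlib 3.10.9).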

Additional observations from a re-analysis of the deposited data

Results flagged for a closer look

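A probe of Zbtb11, outside the tested set, was detected on 2 of 3 DEX arrays and on 0 of 3 vehicle arrays. Its mean log2 signal was 5.25 ± 0.24 in DEX and 4.74 ± 0.12 in vehicle (SD, n = 3 each). The probe is described because of this pattern, the remaining DEX array, replicate 2, had a detection p just above the limit, and the other probes of Zbtb11 were detected on no array, so no fold is given. Of all probes that were not tested, 0.901% had this pattern and 0.722% the opposite one, detected on 2 vehicle arrays and on no DEX array. Of the 7 member probes detected on 1 or 2 arrays, 6 were detected in DEX alone and 0 in vehicle alone. Over all untested probes detected on 1 or 2 arrays the shares were 46.8% in DEX alone and 34.5% in vehicle alone, and the difference was not tested.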

How the results depend on the processing

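The count of members higher in DEX was 1 as reported. It was 2 (Zbtb16 and Bcl6) without background correction, with a normexp offset of 50, in the authors' lumi values and with the replicate block, and 3 with array weights, which added Zbtb24. It was 0 where detection on all arrays was required, since Zbtb16 was then not tested. With 1 array left out it was 1 to 1, and the count of lower members was 0 in every setting. The log2 fold change of Bcl6 in the settings where it passed was 0.57 without background correction, 0.59 with offset 50, 0.58 in the lumi values, 0.60 with the replicate block and 0.66 with array weights. With 1 array left out it was 0.47 to 0.69 and did not pass. That of Zbtb16 was 2.29 to 2.86 with 1 array left out, and 1.83 with offset 50. The block of paired replicates changed no other member's call.

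Of the 27 members, 18 kept their direction in every setting. Under median scaling Zbtb18 (-0.012), Zbtb7a (-0.11), Zbtb33 (-0.039), Zbtb43 (-0.0029) and Zbtb26 (-0.037) turned negative; with array weights Zbtb7a (-0.10), Zbtb41 (-0.058), Zbtb43 (-0.014) and Zbtb26 (-0.12) did, while Zbtb3 (0.0091) and Cdkn2a (0.14) turned positive. With 1 array left out, log2 fold changes crossed 0 for Zbtb18 (-0.037 to 0.31), Zbtb8os (-0.26 to 0.035), Zbtb7a (-0.068 to 0.15), Zbtb33 (-0.087 to 0.16), Zbtb41 (-0.14 to 0.42), Zbtb43 (-0.0085 to 0.18), Zbtb26 (-0.28 to 0.28), Zbtb2 (-0.11 to 0.025), Zbtb3 (-0.16 to 0.057), Gzf1 (-0.040 to 0.62), Cdkn2a (-0.20 to 0.086) and Cox7a1 (-0.66 to 0.25). Cish had an adjusted p of 0.103 with all probes tested, and Hdac4 one of 0.0532 under median scaling. Ccnd2 passed without background correction, with offset 50, under median scaling, in the lumi values, with the replicate block and with array weights. The causes were not tested. Dim probes such as those of Zbtb1, Zbtb7b, Zbtb8a and Zbtb46 lie near background, where folds are compressed.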
